A study of Caenorhabditis elegans with 6 samples.

Results

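Cuticlins are the part of the nematode cuticle that stays insoluble after strong detergents and reducing agents, and the genes are named cut (cuticlin) or cutl (cuticlin-like). The genes were taken by name, as every gene whose symbol in the platform annotation begins with cut- or cutl-. This gave 34 genes of the 17118 named on the array, 6 of them cut genes (cut-1 to cut-6) and 28 of them cutl genes (cutl-1 to cutl-22 and cutl-24 to cutl-29). A gene with several probe sets was represented by its brightest, taken as the highest mean over the 6 arrays.

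Most cuticlins carry a zona pellucida (ZP) domain, a fold that lets secreted or membrane-tethered proteins polymerise into filaments, and they are made by the epidermis, including the seam cells that lie along each side of the worm. In Caenorhabditis elegans the best known ones build the lateral ridges called alae and narrow the body at certain stages: cut-3 and cut-5 are needed for the alae of the first larval stage (L1), and cut-1 and cut-5 for those of the dauer larva. The product of cut-2 has no ZP domain and consists largely of short repeats that are joined by dityrosine cross-links.

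The measurements were made on whole, unfed L1 larvae with Affymetrix C. elegans arrays, 2 biological replicates for each of 3 groups. The first group was elo-5(gk208) larvae whose mothers were given the fatty acid C13ISO (elo-5 C13ISO), which the labels describe as deficient in C17ISO. The second was elo-5(gk208) larvae whose mothers were given C17ISO (elo-5 C17ISO), and the third was wild-type larvae of the strain N2 whose mothers were given C13ISO (N2 C13ISO). C13ISO and C17ISO are branched-chain fatty acids with a methyl group near the end of the chain, the second being the longer, and elo-5 encodes an elongase needed to make C17ISO. The worms of all groups, N2 included, had spent the generation before on C17ISO. Supplements were given at 1 mM at 20 °C, and the larvae hatched from bleached eggs and spent 24 h without food before RNA was extracted. N2 larvae of mothers on C17ISO were not analysed here, so elo-5 C17ISO and N2 C13ISO differ in both genotype and supplement. RNA of whole larvae does not tell fewer cells of a type from less RNA per cell.

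The values are intensities on a linear scale as deposited, with array medians of 107 to 134 and Spearman correlations of 0.984 to 0.989 between the arrays of a group. The targeted gene elo-5 read 217 and 144 in elo-5 C13ISO, 146 and 178 in elo-5 C17ISO, and 1169.7 and 1608 in N2 C13ISO, so both mutant groups lay below N2 on every array. Probes outside the deleted part of elo-5 would not check the labels, and their position was not examined. Differences below are on the log2(intensity + 16) scale, on which the change of dim probe sets is understated, and folds are taken from it. They were tested with limma across 15783 probe sets that lay above the 30th percentile of mean signal, and a gene was called at a Benjamini-Hochberg adjusted p under 0.05. Intensities of different probe sets are not comparable with each other, so each gene, or the sum of a list, is compared only with itself across groups.

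Of the 34 cuticlin genes, 28 lay above that filter, and 14 of those 28 were called in at least 1 comparison. The cuticlins did not move in 1 direction. Against elo-5 C17ISO, elo-5 C13ISO larvae had 6 genes higher (cut-3, cutl-14, cutl-10, cut-5, cutl-24 and cutl-20) and 7 lower (cutl-18, cut-4, cutl-29, cutl-28, cut-6, cutl-3 and cut-2), while 15 were not called. The balance of directions depended on the scaling of the arrays, with 5 higher and 10 lower after quantile normalization and 4 higher and 11 lower with array medians aligned. Those settings called 7250 and 7623 of all 15783 probe sets tested, against 7026 as deposited. The median log2 difference over all probe sets tested was then -0.005 and -0.16. Shares of the whole array by direction were not counted in those settings. As deposited, the 13 calls are 46.4% of the 28 genes tested, against 44.5% of all probe sets tested, so the share called was close to that of the array as a whole. Over the whole array 25.7% of the probe sets tested were higher and 18.8% lower. The median log2 difference was -0.18 over the 34 cuticlins and also over the 28 tested, against 0.07 over all probe sets tested. Among the called genes, 6 differed by at least 2-fold, or 21.4% of those tested, against 18.4% of all probe sets tested. No overlap between the arrays of these groups was found for 25 of the 34 (73.5%) and for 63.4% of all probe sets on the array.

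Against N2 C13ISO, elo-5 C13ISO larvae had 4 cuticlins higher (cut-3, cutl-10, cutl-14 and cutl-24) and 8 lower (cut-4, cutl-18, cutl-29, cutl-3, cutl-28, cut-6, cutl-12 and cut-2), and 16 were not called. Quantile normalization gave 4 higher and 9 lower, and array medians aligned 4 and 11. Those settings called 7068 and 7382 of all 15783 probe sets tested, against 6875 as deposited. As deposited, the calls were 42.9% of the genes tested, against 43.6% of all probe sets tested (23.2% higher and 20.4% lower). The median log2 difference was -0.22 over the 34 genes and -0.31 over the 28 tested, against 0.02 for all probe sets tested. At least 2-fold differences were called in 9 genes (32.1%), against 18.6% of all probe sets tested, and the arrays did not overlap for 26 of the 34 (76.5%), against 64.4% on the whole array. Both comparisons use the same elo-5 C13ISO arrays, so their lists of calls are not independent of each other. Between elo-5 C17ISO and N2 C13ISO limma called 0 of the 28 cuticlins, where it called 1.41% of all probe sets tested (0.767% higher and 0.64% lower). At an unadjusted p under 0.05 that comparison had 5 cuticlins (1 higher and 4 lower), a share to be read against 15.7% of all probe sets tested.

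**Figure D1:**
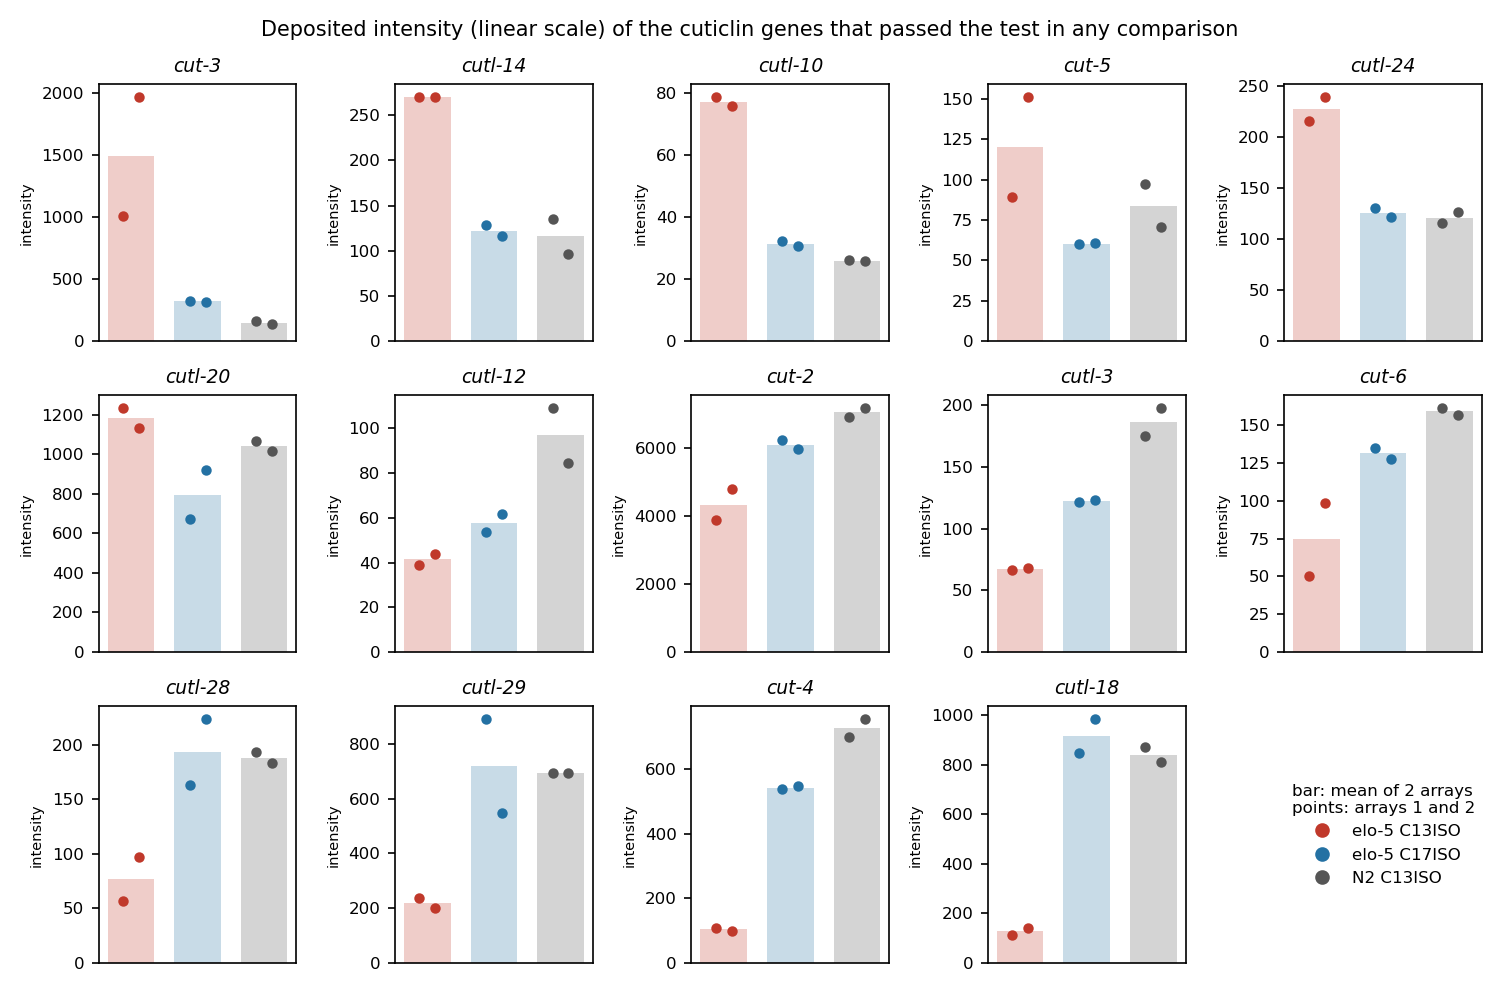
Deposited intensity, on a linear scale from 0, of the 14 cuticlin genes called in at least 1 comparison, with elo-5 C13ISO at the left, elo-5 C17ISO in the middle and N2 C13ISO at the right of each panel. Points are the 2 arrays of a group and bars their mean. Each panel has its own scale. In the cut-3 panel elo-5 C13ISO (1009 and 1971) is above the other groups, and in the cutl-18 and cut-4 panels it is below them (113 and 142, and 109.7 and 100.4).

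The genes of the L1 alae are taken first. cut-3 read 1009 and 1971 in elo-5 C13ISO, 325 and 313 in elo-5 C17ISO, and 158 and 137 in N2 C13ISO. The 3 groups did not overlap, and the elo-5 C13ISO arrays were the highest and also the furthest apart from each other. The gene was 4.26-fold higher in elo-5 C13ISO than in elo-5 C17ISO (log2 2.09, SE 0.26, limma adjusted p = 1.25e-04) and 8.76-fold higher than in N2 C13ISO (log2 3.13, SE 0.26, adjusted p = 7.95e-06). It was the cuticlin with the largest increase in both comparisons. The probe set of cut-3 carries the suffix _s_at, used by Affymetrix for sets whose probes are shared between transcripts.

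cut-3 was also the cuticlin that differed most between the remaining groups. It was 2.05-fold higher in elo-5 C17ISO than in N2 C13ISO (log2 1.04, SE 0.26, 95% interval 0.46 to 1.62), which missed the threshold in the fit of all 6 arrays (limma adjusted p = 0.0958). When only the 4 arrays of these groups entered limma, 534 of the 15783 probe sets tested were called, against 222 in the fit of all 6 arrays. The adjusted p of cut-3 was then 0.0105. Without replicate 1 of elo-5 C13ISO it was 0.00993, and without replicate 2 it was 0.0107. The spread of the elo-5 C13ISO arrays enters the shared error of the full fit. The prior, the intensity trend and the adjustment over all probe sets also change with the arrays fitted. Which of these moved the adjusted p of cut-3 was not tested.

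cut-5, needed for alae in both the L1 and the dauer, read 89.0 and 151 in elo-5 C13ISO, 59.8 and 60.6 in elo-5 C17ISO, and 97.4 and 70.4 in N2 C13ISO. The mutant groups did not overlap, but the N2 arrays reached into the range of elo-5 C13ISO. The gene was 1.74-fold higher in elo-5 C13ISO than in elo-5 C17ISO (log2 0.80, SE 0.24, limma adjusted p = 0.0225). This call fell away without replicate 2 of elo-5 C13ISO (log2 0.46, adjusted p = 0.142), without elo-5 C17ISO replicate 1 (0.0906) or replicate 2 (0.0878), with quantile normalization (0.0855) and with array medians aligned (0.0724). Against N2 C13ISO the difference was log2 0.42, with an interval of -0.12 to 0.96 and adjusted p = 0.194, and it was called only without elo-5 C13ISO replicate 1 (log2 0.76, adjusted p = 0.0251).

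cut-1 and cut-6 are further genes of the dauer alae. cut-1 was very dim, with 1.00 and 5.15 in elo-5 C13ISO, 1.87 and 1.08 in elo-5 C17ISO, and 1.56 and 2.06 in N2 C13ISO, and was below the filter. No difference in cut-1 can be read from signals this low. cut-6, which also takes part in body shape, read 50.6 and 98.8 in elo-5 C13ISO, 135 and 128 in elo-5 C17ISO, and 162 and 157 in N2 C13ISO. Both elo-5 C13ISO arrays were below the other 4.

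The fall of cut-6 was 1.69-fold against elo-5 C17ISO (log2 -0.75, SE 0.24, limma adjusted p = 0.028) and 2.005-fold against N2 C13ISO (SE 0.24, adjusted p = 0.00711). The first of these calls fell away without replicate 1 of elo-5 C13ISO (log2 -0.36, adjusted p = 0.143), without elo-5 C17ISO replicate 1 (0.12) or replicate 2 (0.0926), and with no filter (0.0535). Without elo-5 C13ISO replicate 2 it became log2 -1.15. The fall against N2 stayed called without elo-5 C13ISO replicate 1, at log2 -0.61 (adjusted p = 0.0248).

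cut-2, the repeat protein without a ZP domain, gave strong signal in every group. It read 3898 and 4790.4 in elo-5 C13ISO, 6232 and 5967 in elo-5 C17ISO, and 6926 and 7196 in N2 C13ISO. The groups were ordered in that way with no overlap. Its fall was the smallest of those called in each comparison, 1.41-fold against elo-5 C17ISO (log2 -0.50, SE 0.10, limma adjusted p = 0.00241) and 1.63-fold against N2 C13ISO (log2 -0.71, SE 0.10, adjusted p = 2.51e-04). The probe set carries the suffix _x_at, which Affymetrix gives to sets with probes that may bind other transcripts.

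cut-4 fell furthest among the cut genes. It read 109.7 and 100.4 in elo-5 C13ISO, 537 and 548 in elo-5 C17ISO, and 700.3 and 756 in N2 C13ISO, with tight replicates and no overlap. The fall was 4.62-fold against elo-5 C17ISO (log2 -2.21, SE 0.15, limma adjusted p = 2.06e-06) and 6.15-fold against N2 C13ISO (log2 -2.62, SE 0.15, adjusted p = 6.0e-07). Between elo-5 C17ISO and N2 C13ISO the log2 difference was -0.41, with an interval of -0.75 to -0.08 and adjusted p = 0.214.

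Among the 23 cutl genes tested, 4 were higher and 4 lower in elo-5 C13ISO than in elo-5 C17ISO, or 34.8% called against 44.5% of all probe sets tested. The deepest fall of any cuticlin in that comparison was that of cutl-18, which read 113 and 142 in elo-5 C13ISO, 846 and 985 in elo-5 C17ISO, and 870.3 and 809 in N2 C13ISO. It was 6.52-fold lower than in elo-5 C17ISO (log2 -2.70, SE 0.16, limma adjusted p = 9.67e-07) and lower than in N2 C13ISO by a similar amount (log2 -2.59, SE 0.16, adjusted p = 1.2e-06). The elo-5 C17ISO and N2 C13ISO arrays of this gene overlapped, and their log2 difference was 0.12 with an interval of -0.25 to 0.48.

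cutl-29 followed the same course on both of its probe sets. The brighter read 239 and 202 in elo-5 C13ISO, 891 and 549 in elo-5 C17ISO, and 693 and 694 in N2 C13ISO. The dimmer read 47.2 and 26.1, then 279.8 and 237, and 227 and 227, in that order of groups. The brighter fell 3.04-fold against elo-5 C17ISO (log2 -1.60, SE 0.21, limma adjusted p = 1.92e-04) and 3.01-fold against N2 C13ISO (adjusted p = 1.91e-04), and the dimmer fell by log2 -2.41 (adjusted p = 1.3e-05) and -2.24. On each set both elo-5 C13ISO arrays lay below the other 4.

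cutl-28 read 56.5 and 96.7 in elo-5 C13ISO, 163 and 224 in elo-5 C17ISO, and 194 and 183 in N2 C13ISO. It fell 2.29-fold against elo-5 C17ISO (log2 -1.20, SE 0.24, limma adjusted p = 0.00221) and 2.26-fold against N2 C13ISO (log2 -1.18, adjusted p = 0.00246). The spread within elo-5 C13ISO was wide, and its higher array was still well below the other groups. Its neighbour cutl-26, with 1 protein-coding gene between them in the RefSeq WBcel235 gene order, had no such difference. cutl-26 read 403 and 663 in elo-5 C13ISO, 518 and 518 in elo-5 C17ISO, and 429 and 448 in N2 C13ISO, a log2 difference of -0.00 between the mutant groups with an interval of -0.47 to 0.47.

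cutl-3 and cutl-12 had their highest values in N2 C13ISO and intermediate ones in elo-5 C17ISO. cutl-3 read 66.3 and 68.2 in elo-5 C13ISO, 122 and 123 in elo-5 C17ISO, and 175 and 198 in N2 C13ISO. It fell 1.66-fold against elo-5 C17ISO (log2 -0.74, SE 0.17, limma adjusted p = 0.00535) and 2.43-fold against N2 C13ISO (log2 -1.28, SE 0.17, adjusted p = 1.66e-04). cutl-12 read 39.1 and 43.8 in elo-5 C13ISO, 53.5 and 61.8 in elo-5 C17ISO, and 109 and 84.6 in N2 C13ISO.

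As deposited, cutl-12 was called only against N2 C13ISO, where it was 1.95-fold lower (log2 -0.97, SE 0.19, limma adjusted p = 0.00254), a log2 value that became -0.61 with an offset of 64. Against elo-5 C17ISO its difference was log2 -0.36 (interval -0.79 to 0.08, limma adjusted p = 0.166). It was called there with array medians aligned (log2 -0.59, adjusted p = 0.0272). Quantile normalization called it only at the threshold (log2 -0.52, with an adjusted p that rounds to 0.05). Between elo-5 C17ISO and N2 C13ISO neither gene was called, with log2 differences of -0.54 for cutl-3 (adjusted p = 0.156) and -0.61 for cutl-12 (adjusted p = 0.166). In both genes the arrays of those groups did not overlap, as happened for 18 of the 34 cuticlins (52.9%) and for 46.0% of all probe sets on the array.

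The cutl genes that rose were cutl-14, cutl-10, cutl-24 and cutl-20. cutl-14 read 270.5 and 270.2 in elo-5 C13ISO, 128 and 116 in elo-5 C17ISO, and 135 and 96.4 in N2 C13ISO. It was 2.08-fold higher than in elo-5 C17ISO (log2 1.05, SE 0.19, limma adjusted p = 0.00122) and 2.20-fold higher than in N2 C13ISO (log2 1.14, adjusted p = 7.46e-04). cutl-10 read 78.7 and 75.5 in elo-5 C13ISO, 32.1 and 30.7 in elo-5 C17ISO, and 26.2 and 25.6 in N2 C13ISO. In both genes the elo-5 C13ISO replicates were close together and far above the other 4 arrays.

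The increase of cutl-10 was 1.97-fold over elo-5 C17ISO (log2 0.97, SE 0.18, limma adjusted p = 0.00174) and 2.22-fold over N2 C13ISO (log2 1.15, adjusted p = 5.94e-04). With an offset of 64 these log2 values became 0.56 and 0.65, and both stayed called. The probe set has the suffix _s_at, used by Affymetrix for sets whose probes are shared between transcripts, as do those of cut-3, cutl-2, cutl-9 and cutl-26.

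For cutl-24 and cutl-20 the probe sets of 1 gene disagreed. The brightest set of cutl-24 read 216 and 239.8 in elo-5 C13ISO, 130.1 and 122 in elo-5 C17ISO, and 116 and 126 in N2 C13ISO. It was 1.72-fold higher than in elo-5 C17ISO (log2 0.78, SE 0.17, limma adjusted p = 0.0035) and 1.78-fold higher than in N2 C13ISO (adjusted p = 0.00239). The other set of cutl-24 differed by log2 0.13 (adjusted p = 0.594) and 0.38 (adjusted p = 0.113), so the increase was measured on 1 of 2 sets. With the mean over both sets the log2 difference from elo-5 C17ISO was 0.45, which was still called.

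cutl-20 had 4 probe sets. The brightest read 1237 and 1135 in elo-5 C13ISO, 672 and 919 in elo-5 C17ISO, and 1067 and 1018 in N2 C13ISO, a 1.497-fold increase over elo-5 C17ISO (log2 0.58, SE 0.16, limma adjusted p = 0.0137) that was not called against N2 (log2 0.18). A second set, with the suffix _s_at, differed from elo-5 C17ISO by log2 0.18 (adjusted p = 0.34). The remaining sets, with the suffixes _s_at and _x_at, fell by log2 -0.94 (adjusted p = 7.93e-04) and -0.89 (adjusted p = 8.15e-04).

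The direction of cutl-20 therefore depended on the probe set, and with the mean over its sets it was log2 -0.27 (adjusted p = 0.124). On the brightest set the call also fell away without replicate 1 of elo-5 C13ISO (adjusted p = 0.0537), without elo-5 C17ISO replicate 1 (log2 0.36, adjusted p = 0.103) and with array medians aligned (log2 0.35, adjusted p = 0.104). Which of its sets measure cutl-20 alone was not tested.

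**Figure D2:**
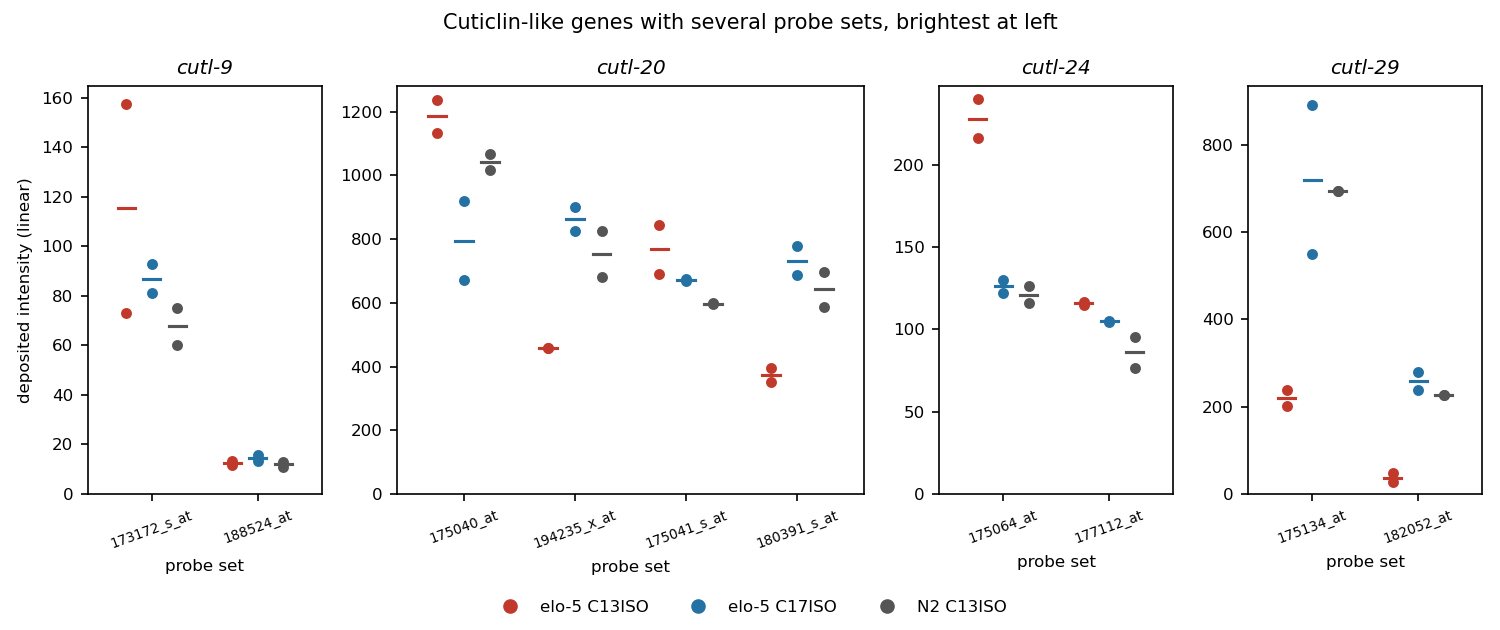
Deposited intensity (vertical axis, linear scale) on each probe set (horizontal axis) of the 4 cuticlin-like genes with several, with the groups side by side, elo-5 C13ISO (red) at the left of elo-5 C17ISO (blue) and N2 C13ISO (grey) at the right. Points are single arrays and short lines the group means. Both cutl-29 sets are lowest in elo-5 C13ISO, while the cutl-20 sets go in opposite directions (1237 and 1135 on the brightest in elo-5 C13ISO, 350.3 and 396 on the dimmest).

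The other 14 cuticlins above the filter were called in no comparison: cutl-5, cutl-6, cutl-7, cutl-9, cutl-11, cutl-15, cutl-16, cutl-17, cutl-19, cutl-21, cutl-22, cutl-25, cutl-26 and cutl-27. Against elo-5 C17ISO their log2 differences ran between -0.49 (cutl-7, limma adjusted p = 0.0958) and 0.28 (cutl-9, adjusted p = 0.46), and against N2 C13ISO between -0.59 (cutl-21, adjusted p = 0.0833) and 0.58 (cutl-9, adjusted p = 0.127). The interval of cutl-9 was wide, -0.35 to 0.91 against elo-5 C17ISO, and its elo-5 C13ISO arrays read 73.2 and 157. That of cutl-22, which read 111 and 126 in elo-5 C13ISO, 167 and 164 in elo-5 C17ISO, and 152 and 119 in N2 C13ISO, was -0.83 to -0.03 (adjusted p = 0.0762). With array medians aligned, cutl-7, cutl-15 and cutl-22 were called lower than in elo-5 C17ISO (adjusted p = 0.0195, 0.0194 and 0.00917), and cutl-7, cutl-15 and cutl-21 lower than in N2 C13ISO (0.0166, 0.0142 and 0.0297). Quantile normalization also called cutl-7 (0.035) and cutl-22 (0.0118) lower than in elo-5 C17ISO. cutl-7 lay closest to a call against N2 C13ISO (log2 -0.58, adjusted p = 0.0531), and it was called there with quantile normalization (0.0225), without the intensity trend (0.0396) and with the mean over the probe sets of each gene (0.0448). A value that misses the threshold with 2 arrays per group does not show that a gene was alike in the groups.

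Several of these genes were called once a single array was left out. Without elo-5 C13ISO replicate 1, cutl-9 was higher than in elo-5 C17ISO (log2 0.76, limma adjusted p = 0.0199) and than in N2 C13ISO (log2 1.06, adjusted p = 0.00393), and cutl-26 was higher than in N2 C13ISO (log2 0.58, adjusted p = 0.0144). With cut-5, this raised the count of cuticlins higher than in N2 to 7. Without elo-5 C13ISO replicate 2, cutl-25 was lower than in N2 C13ISO (log2 -0.88, adjusted p = 0.0207), and without N2 C13ISO replicate 1 so was cutl-5 (log2 -0.90, adjusted p = 0.0299).

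The replicates of elo-5 C13ISO differed for several cuticlins. Of the 28 tested, 19 were higher and 9 lower in replicate 2. The split was 12 higher and 16 lower in elo-5 C17ISO, and 9 higher and 19 lower in N2 C13ISO. An uneven split was therefore not particular to elo-5 C13ISO, and the same count over all probe sets was not made. In elo-5 C13ISO 7 of the 28 genes tested were more than 0.5 log2 units higher in replicate 2 (cut-3 and cutl-9 0.96, cutl-25 0.92, cut-6 0.79, cutl-26 0.70, cut-5 0.67 and cutl-28 0.64) and 0 were as much lower. Of all probe sets tested, 6.29% were higher and 7.91% lower by more than 0.5 in that replicate. The median absolute difference between replicates was 0.19 for the cuticlins tested in elo-5 C13ISO (0.21 for all probe sets tested), 0.11 in elo-5 C17ISO (0.16) and 0.11 in N2 C13ISO (0.13).

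Below the filter lay 6 cuticlins: cut-1, cutl-1, cutl-2, cutl-4, cutl-8 and cutl-13. Their array values ran from 1.00 to 45.05. In a limma fit without the filter, which called 31.4% of all 22548 probe sets against elo-5 C17ISO and 30.5% against N2 C13ISO, 2 of the 6 were called. cutl-1, which read 23.6 and 28.8 in elo-5 C13ISO, 14.02 and 9.46 in elo-5 C17ISO, and 22.2 and 17.4 in N2 C13ISO, was higher than in elo-5 C17ISO (log2 0.61, adjusted p = 0.0321). cutl-4, which read 19.04 and 15.5, 26.8 and 29.3, and 38.9 and 45.05 in the same order of groups, was lower than in N2 C13ISO (log2 -0.80, adjusted p = 0.00853). cutl-1 and cut-2 lie with 3 protein-coding genes between them in the RefSeq gene order, and against elo-5 C17ISO they differed in opposite directions.

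**Figure D3:**
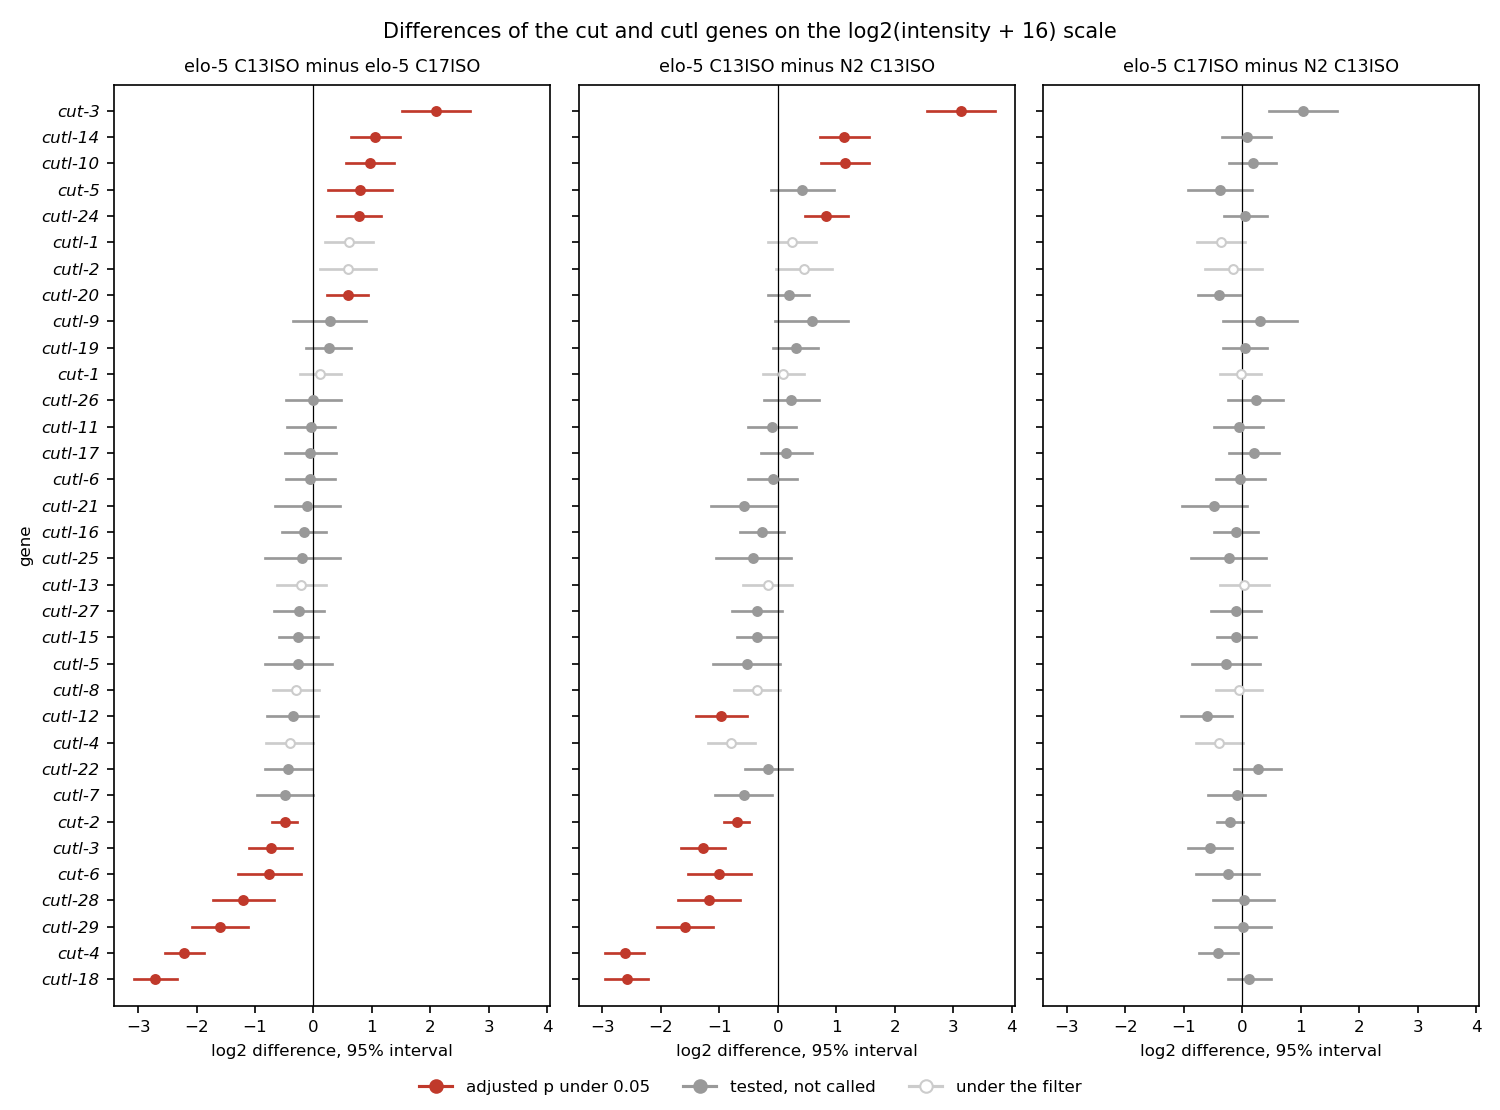
Log2 differences of all 34 cuticlin genes with their 95% intervals (horizontal axis). The left panel sets elo-5 C13ISO against elo-5 C17ISO, the middle one sets it against N2 C13ISO, and the right one sets elo-5 C17ISO against N2 C13ISO, with genes ordered by the left panel. Red marks a call, grey a gene tested and not called, and an open point a gene below the filter. The left panel runs from cut-3 (2.09) to cutl-18 (-2.70), and the middle one from cut-3 (3.13) to cut-4 (-2.62). The right panel holds no call, with cut-3 (1.04) the furthest from 0.

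Cuticlins are fixed in the cuticle by dityrosine cross-links, which dual oxidases and their partners and heme peroxidases make. Of 9 such genes on the array 7 were tested, and 2 were higher and 2 lower in elo-5 C13ISO than in elo-5 C17ISO. These counts are to be read against 25.7% higher and 18.8% lower over all probe sets tested, or 44.5% called. The peroxidase gene skpo-2 read 70.2 and 124 in elo-5 C13ISO, 869.6 and 874 in elo-5 C17ISO, and 867 and 933 in N2 C13ISO. It fell 8.09-fold against elo-5 C17ISO (log2 -3.02, SE 0.21, limma adjusted p = 2.65e-06). The oxidase gene duox-2 also fell (log2 -0.63, adjusted p = 0.0172).

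The members that rose against elo-5 C17ISO were mlt-7, a peroxidase needed for molting (1.80-fold, limma adjusted p = 0.00127), and tsp-15, a tetraspanin that works with the dual oxidase BLI-3 (log2 0.47, adjusted p = 0.04). bli-3 itself differed by log2 -0.17 (adjusted p = 0.424). Against N2 C13ISO 0 of the 7 were higher and 3 lower, where 23.2% of all probe sets tested were higher and 20.4% lower. The 3 were skpo-2, duox-2 and doxa-1, the maturation factor of the dual oxidase (log2 -0.77, limma adjusted p = 0.00722). With array medians aligned, the counts were 1 higher and 3 lower against elo-5 C17ISO and 0 and 5 against N2.

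Most other matrix genes examined fell. Of 12 genes for other ZP proteins and components of the precuticle, the transient matrix laid down before the cuticle, 1 was higher and 10 lower in elo-5 C13ISO than in elo-5 C17ISO, and 1 and 9 against N2 C13ISO. Their median log2 differences were -1.43 and -1.50. Over all probe sets tested, 25.7% were higher and 18.8% lower against elo-5 C17ISO, and 23.2% and 20.4% against N2 C13ISO. The ZP gene noah-2, needed for the embryonic sheath and molting, read 537 and 701 in elo-5 C13ISO, 4058 and 3098 in elo-5 C17ISO, and 3409 and 3412 in N2 C13ISO, a fall of 5.66-fold against elo-5 C17ISO (log2 -2.50, SE 0.16, limma adjusted p = 1.21e-06).

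noah-1 fell 2.16-fold, let-653, a ZP gene of the lining of epithelial tubes, fell 3.38-fold, and dex-1, a ZP gene needed for proper seam remodelling in the dauer, fell 1.61-fold against elo-5 C17ISO. The member that rose was egg-6 (log2 0.97, limma adjusted p = 0.0225), which encodes a leucine-rich repeat protein of the apical matrix and had 469 and 1054 in elo-5 C13ISO, 378 and 328 in elo-5 C17ISO, and 358 and 344 in N2 C13ISO. With array medians aligned, 0 members were higher than in elo-5 C17ISO and 11 lower.

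All 5 furrow collagens tested, which mark the ring-shaped grooves of the cuticle, fell against both other groups (medians -3.21 and -2.81). All 11 molting genes fell as well (medians -2.46 and -2.42). Over all probe sets tested, 25.7% were higher and 18.8% lower against elo-5 C17ISO, and 23.2% and 20.4% against N2 C13ISO. Of 12 other body-shape collagens tested, 2 rose and 8 fell against elo-5 C17ISO. Those that rose, dpy-14 and dpy-17 (log2 4.47 and 4.51), moved in the direction of cut-3 and cutl-14. The direction of these 3 lists was the same under quantile normalization and with array medians aligned. How the difference between the cuticlins and these lists would test was not examined.

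**Figure D4:**
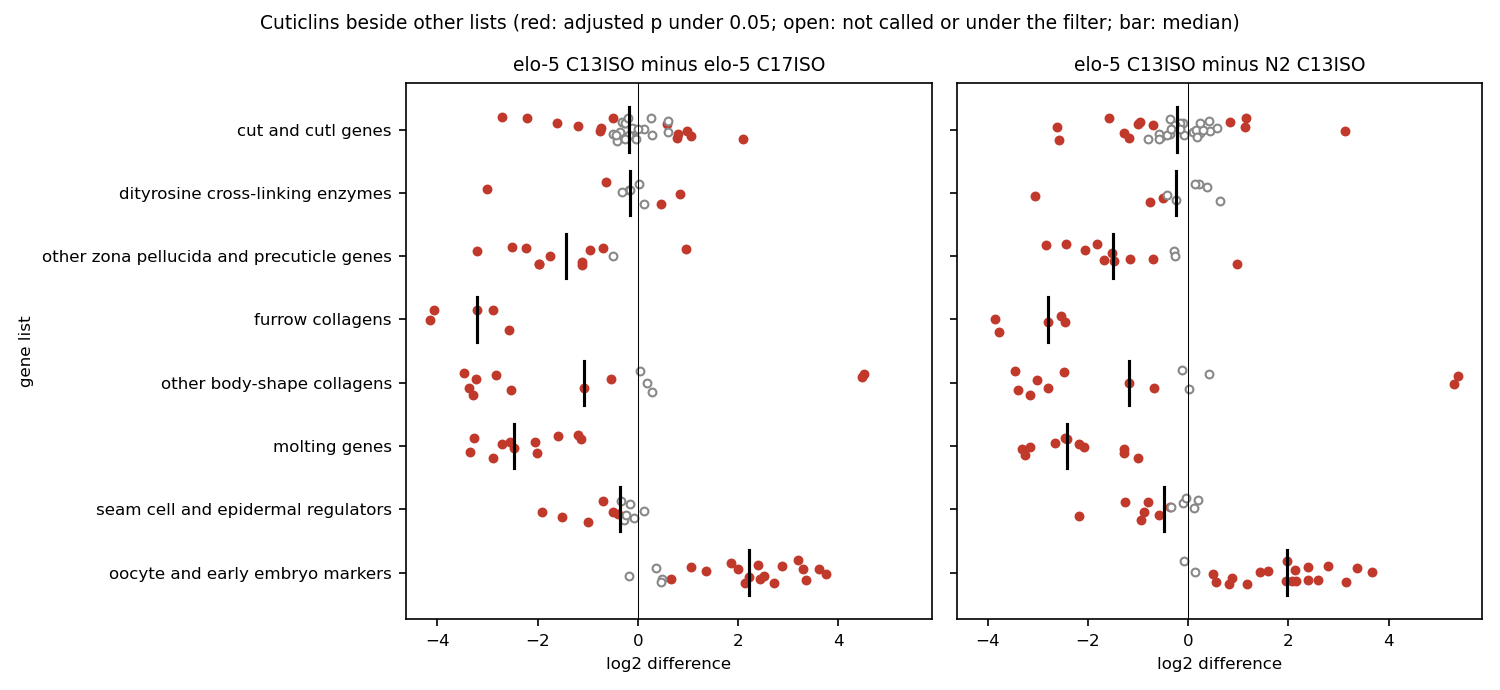
Log2 differences (horizontal axis) of single genes in the cuticlins and in lists of matrix, epidermal and embryonic genes (rows), with elo-5 C13ISO set against elo-5 C17ISO at the left and against N2 C13ISO at the right. Red points were called, open points were not called or lay below the filter, and the bar is the median over all genes of a list on the array. The cuticlins spread to both sides of a median of -0.18 and -0.22, whereas the molting genes lie below 0 throughout, with medians of -2.46 and -2.42.

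Markers of cell types moved beside these results. Counts against elo-5 C17ISO are to be read against 25.7% higher and 18.8% lower over all probe sets tested. Of 11 regulators of seam and epidermal cells tested, 0 were higher and 6 lower in elo-5 C13ISO than in elo-5 C17ISO. The largest falls were in blmp-1 (log2 -1.92, 3.77-fold, limma adjusted p = 3.92e-05) and nhr-23 (log2 -1.51, 2.84-fold, adjusted p = 1.43e-04), transcription factors of the epidermis and of the molting cycle. The 12 regulators on the array, 1 of them below the filter, summed to 6514 and 7036 in elo-5 C13ISO, 11071 and 9410 in elo-5 C17ISO, and 11348 and 10308 in N2 C13ISO. Such a sum is weighted to the brightest probe sets.

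Oocyte and early embryo markers went the other way, with 17 of 20 tested higher and 0 lower against elo-5 C17ISO, and 19 and 0 against N2 C13ISO. Over all probe sets tested, 25.7% and 23.2% were higher in these comparisons. The 21 such markers on the array, 1 of them below the filter, summed to 11014 and 17062 in elo-5 C13ISO. Their sums were 3785 and 2831 in elo-5 C17ISO, and 4322 and 3621 in N2 C13ISO, and 0 of them were listed at 0. The higher of the elo-5 C13ISO sums was that of replicate 2, in which 19 of the 28 cuticlins tested were higher and 9 lower. Sums of other lists went both ways between these replicates. The molting genes summed to 4742 in replicate 1 and 5222 in replicate 2, and the dityrosine cross-linking enzymes to 2681 and 2412. Body wall muscle markers gave 0 higher and 1 lower of 10, neuron markers 1 and 0 of 9, and intestine markers 6 and 1 of 10 against elo-5 C17ISO. With quantile normalization these counts were 3 and 1 for muscle, 2 and 0 for neurons, and 6 and 1 for intestine. With array medians aligned they were 0 and 2, 0 and 1, and 2 and 2. The part of these cell types or of developmental stage in the cuticlin values was not tested.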

How the data were processed

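The authors computed model-based intensities with dChip, per the labels. The deposited table holds 1 linear intensity per probe set and array. Which dChip version was used, whether mismatch probes entered, and how arrays were normalized, is not given in the sources here. Precision is limited by the 2 arrays per group.

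Names came from the platform annotation, which can be dated; 34 of 34 members were found by Entrez ID in a RefSeq gene table (WBcel235), used only for names and gene order. One further probe set, listed under 2 Entrez IDs both named cutl-8, was left out.

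Values were transformed as log2(intensity + 16) and filtered above the 30th percentile of mean log2, leaving 15783 of 22548 probe sets. One limma 3.58.1 fit (R 4.3.3; lmFit, eBayes with trend; 3 residual and 6.94 prior degrees of freedom) held all 6 arrays, with two-sided p-values and Benjamini-Hochberg adjustment. The code was tested on simulated data. Python 3.11.15, pandas 2.3.3 and matplotlib 3.10.9 made tables and figures.

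Every member is named; other genes come from lists, at most 6 each. Membership rests on gene names alone, but the choice of this family and of the lists was made with earlier results of these data known.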

Additional observations from a re-analysis of the deposited data

How the results depend on the processing

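With 2 arrays per group the calls near the threshold are the least settled. The counts given are cuticlins higher and lower. Against elo-5 C17ISO (6 and 7), there were 5 higher and 10 lower with quantile normalization and 4 higher and 11 lower with array medians aligned. These scalings called 7250 and 7623 of all 15783 probe sets tested, in place of 7026. With array medians aligned all probe sets tested had a median of -0.16 in place of 0.07. At a fold of at least 2, 2 cuticlins were higher and 4 lower. Against N2 C13ISO (4 and 8), 5 were lower with the filter at the 50th percentile, which tests fewer genes. In elo-5 C17ISO minus N2 C13ISO (0 and 0), 1 gene, cut-3, was higher when only those arrays were fitted. That fit called 534 of all probe sets tested, in place of 222. Leaving out each array in turn gave 4 to 6 higher and 6 to 7 lower against elo-5 C17ISO, 4 to 7 higher and 8 to 9 lower against N2 C13ISO, and 0 to 1 higher and 0 lower in elo-5 C17ISO minus N2 C13ISO. For single called genes, 419 of 442 values under alternatives kept direction and call. Another 22 kept the direction and lost the call or, where a fold of at least 2 was required, lay under it. The direction changed in 1, cutl-20 at log2 -0.27 with the mean over its probe sets. Alternatives such as the filter, the intensity trend, the block and the fold cut leave the log2 value itself unchanged. The direction could not change in those, and genes dropped by a filter are not counted, so the tally overstates how far stability was tested. The cause of the changes in counts and calls was otherwise not tested.

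A fit with the replicate number as a block gave 6 higher and 7 lower against elo-5 C17ISO, 4 and 8 against N2 C13ISO, and 0 and 0 for elo-5 C17ISO minus N2 C13ISO, so it changed no count. Replicates of the same number showed little shared deviation (r of 0.0015, 0.0541 and 0.0818 between groups over 15783 probe sets). This cannot show whether samples of the same number were prepared together, which the labels do not say.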
